A study of Mus musculus with 2 samples.

Results

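The ubiquitin E2 enzymes and deubiquitinases described here were taken by symbol from the RefSeq annotation of mm10 (GRCm38.p6): every protein-coding gene whose symbol starts with Ube2, or is Usp followed by a number with or without 1 final letter. This gave 87 of 21887 protein-coding genes on nuclear chromosomes, 37 Ube2 genes and 50 Usp genes. The symbol is not always the enzyme: Ube2cbp encodes an E3-type protein, Ube2v1 and Ube2v2 are E2 variants without a catalytic cysteine, and Ube2o joins E2 and E3 functions. The study used CUT&RUN, in which an antibody directs a nuclease to chromatin and the released DNA is sequenced, and asked whether Otp occupies the promoter of Mc4r, a melanocortin receptor gene. Its 2 libraries came from the PVN (paraventricular nucleus, part of the hypothalamus) of adult wild-type mice, 1 with an Otp antibody and 1 with IgG as the antibody control. The labels name the cells as neurons, but the nuclei protocol describes no sort. There is 1 library per antibody, so none of the values below has a replicate check, and no test between libraries was possible.

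Ubiquitin-conjugating (E2) enzymes and ubiquitin-specific proteases work at opposite steps of one pathway. An E1 enzyme activates ubiquitin, an E2 takes it over and, with an E3 ligase, passes it to a substrate, and deubiquitinases such as the Usp proteases take it off again. The balance decides which proteins are degraded by the proteasome, and it also tunes DNA repair, histone marks, receptor trafficking and, in neurons, the turnover of synaptic proteins. Otp (Orthopedia) is a homeodomain transcription factor of the hypothalamus, and homeodomains commonly recognise a TAAT core.

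The authors' peak lists held 11379 Otp regions and 291 IgG regions. Total read numbers are not in these lists, so depth is unknown. The pileup at a summit, meaning the number of tags (reads or fragments) covering it, was worked out from the deposited values. Its median was 13 tags for Otp and 14 for IgG, with the lowest at 6 and 4 tags, and the genome background was 5.87 times lower in the IgG library. Intervals after tag numbers are 95% Poisson intervals and cover counting error only. No expression was measured, so the labelled cell type could not be checked by marker levels. Of the PVN genes Sim1, Avp, Oxt, Crh and Otp itself, only Sim1 carried an Otp region near a gene end (fold enrichment 6.69). These genes are too few to set against the 27.2% of all protein-coding genes that carried one.

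The sequences just before the start sites cover the summits of some of the strong regions, but they are not the called regions themselves. The region ended at chr2:164769858 in Ube2c and at chr10:95515055 in Ube2n, so marked matches beyond those bases lie outside it. For each family, 3 genes with a high −log10 q are shown whose summit fell in bases outside every protein-coding gene. Ube2j1 and Usp46, which had no region, are shown for comparison and were chosen after their values were seen. The stretches are from RefSeq on GRCm38.p6 and run 5′ to 3′ on the strand of the gene. They end at the base before the start, except in Usp28 and Usp36, where they end 66 and 16 bases earlier. They are chr3:135437982-135438231 (plus strand, Ube2d3), chr2:164769679-164769928 (plus, Ube2c), chr10:95514912-95515161 (plus, Ube2n), chr9:48985135-48985318 (plus, Usp28), chr11:118290261-118290494 (minus, Usp36), chr2:30982029-30982278 (plus, Usp20), chr4:33031130-33031379 (plus, Ube2j1) and chr5:74068412-74068661 (minus, Usp46). Capitals mark whole matches, on either strand, to GGGCGG (a GC box), CCAAT (bound by NF-Y), TGCGCA (the core of NRF1 sites), CCGGAA (the core of many ETS factor sites), CACGTG (an E-box), TGACGTCA (a cyclic AMP response element) and TAATTA (a homeodomain motif).
Ube2d3: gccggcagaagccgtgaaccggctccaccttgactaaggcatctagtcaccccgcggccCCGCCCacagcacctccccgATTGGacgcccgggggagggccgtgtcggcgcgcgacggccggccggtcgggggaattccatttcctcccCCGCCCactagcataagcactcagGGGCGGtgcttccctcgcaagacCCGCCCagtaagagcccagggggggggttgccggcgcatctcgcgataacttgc
Ube2c: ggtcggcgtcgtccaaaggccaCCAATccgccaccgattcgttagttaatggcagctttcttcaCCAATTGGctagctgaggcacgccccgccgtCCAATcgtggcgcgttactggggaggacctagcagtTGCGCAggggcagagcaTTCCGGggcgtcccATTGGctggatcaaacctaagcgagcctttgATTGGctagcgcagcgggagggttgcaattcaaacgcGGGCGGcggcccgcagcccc
Ube2n: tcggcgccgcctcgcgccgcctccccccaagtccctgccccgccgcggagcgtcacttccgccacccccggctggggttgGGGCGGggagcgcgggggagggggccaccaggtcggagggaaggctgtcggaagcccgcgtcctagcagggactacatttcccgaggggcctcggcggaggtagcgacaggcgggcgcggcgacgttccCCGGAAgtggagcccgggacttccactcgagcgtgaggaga
Usp28: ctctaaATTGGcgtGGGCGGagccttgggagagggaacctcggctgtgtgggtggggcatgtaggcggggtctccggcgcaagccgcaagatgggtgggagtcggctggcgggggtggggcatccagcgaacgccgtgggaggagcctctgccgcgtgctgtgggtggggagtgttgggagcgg
Usp36: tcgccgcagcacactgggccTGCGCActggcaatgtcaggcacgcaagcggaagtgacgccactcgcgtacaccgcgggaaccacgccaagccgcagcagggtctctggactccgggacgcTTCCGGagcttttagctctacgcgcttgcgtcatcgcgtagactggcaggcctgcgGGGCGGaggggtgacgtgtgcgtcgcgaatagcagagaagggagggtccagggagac
Usp20: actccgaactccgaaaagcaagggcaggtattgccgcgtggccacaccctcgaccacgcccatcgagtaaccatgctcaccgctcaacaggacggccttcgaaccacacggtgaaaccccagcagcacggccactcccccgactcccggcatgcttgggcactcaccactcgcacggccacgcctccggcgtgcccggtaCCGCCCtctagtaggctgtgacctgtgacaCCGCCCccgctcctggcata
Ube2j1: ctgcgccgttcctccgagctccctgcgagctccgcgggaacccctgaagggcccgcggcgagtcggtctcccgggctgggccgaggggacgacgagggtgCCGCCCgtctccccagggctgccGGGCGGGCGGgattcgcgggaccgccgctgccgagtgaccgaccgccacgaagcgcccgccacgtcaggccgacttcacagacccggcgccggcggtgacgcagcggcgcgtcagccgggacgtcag
Usp46: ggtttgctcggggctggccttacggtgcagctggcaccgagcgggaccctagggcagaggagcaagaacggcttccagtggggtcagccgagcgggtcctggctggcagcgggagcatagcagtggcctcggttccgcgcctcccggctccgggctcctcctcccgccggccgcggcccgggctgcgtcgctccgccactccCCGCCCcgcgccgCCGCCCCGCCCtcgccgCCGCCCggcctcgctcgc

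All 8 stretches were rich in G and C, from 62.4% in Ube2c to 77.6% in Usp46. Each held at least 1 GC box, with 4 in Ube2d3 and 4 in Usp46. None held TAATTA, and the shorter TAAT, which is not in capitals, occurred once, in Ube2c. Ube2c was set apart by 6 CCAAT matches, though the last of them and its GC box lay outside its region. Counted from its first base, the summit of the Otp region lay at base 240 in Ube2d3, 80 in Ube2c, 54 in Ube2n, 107 in Usp28, 227 in Usp36 and 47 in Usp20. The stretches held 41 CpG dinucleotides in Ube2j1, 33 in Usp46 and 15 to 32 in the 6 with a region, of which those of Usp28 and Usp36 are shorter (184 and 234 bases). This pair does not stand for the other genes without a region: in 300-base windows around the start, the median number of CpG was 30 in 31 genes with a region there and 23 in 37 without. A match is only a stretch of letters and does not show that a factor binds there.

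An Otp region had its summit within 1 kb of either end in 38 of the 87 genes (43.7%). Over all protein-coding genes the share was 27.2%, and 31.2% was expected from gene length (the mean, over the 87 genes, of the share in their decile of length). The Usp genes had one in 23 of 50 (46.0%, with 32.2% expected from length). Among Ube2 genes it was 15 of 37 (40.5%, 29.8% expected). Both shares lay above their length expectation. Genes are not replicates, and no test was made of it.

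**Figure D1:**
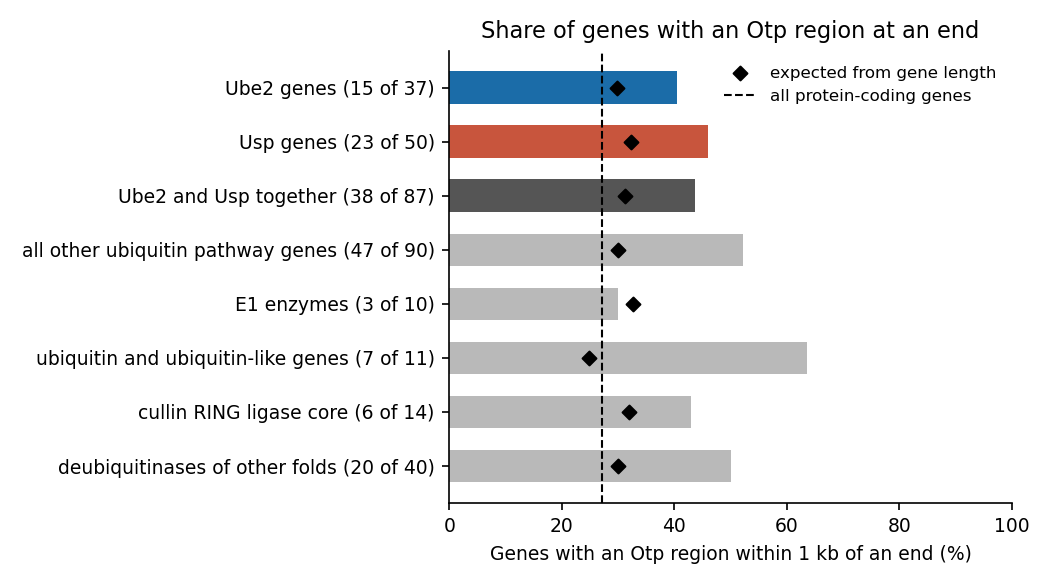
Bars give the percent of genes of each group with an Otp region within 1 kb of an end, diamonds the percent expected from gene length, and the dashed line all protein-coding genes (27.2%). Both families and the combined other ubiquitin pathway genes (47 of 90) lie to the right of the line and of their diamonds. The 10 E1 enzymes (3 with a region, 30%) lie to the right of the line and to the left of their diamond (32.7%).

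The regions at these genes were about as strong as those at other genes. The strongest region per gene had a median fold enrichment of 7.60 (interquartile range 5.92 to 10.8), against 7.83 (6.32 to 10.1) over all genes with a region. Median pileups were equal, at 16 tags. The median −log10 q was 9.55 against 9.89. With only regions of −log10 q of at least 10, 18 of the 87 genes (20.7%) kept one, against 13.4% of all genes and 15.6% expected from length. For Ube2 genes alone that count was 6 (16.2%, 14.9% expected), and for Usp genes 12 (24%, 16.1% expected).

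**Figure D2:**
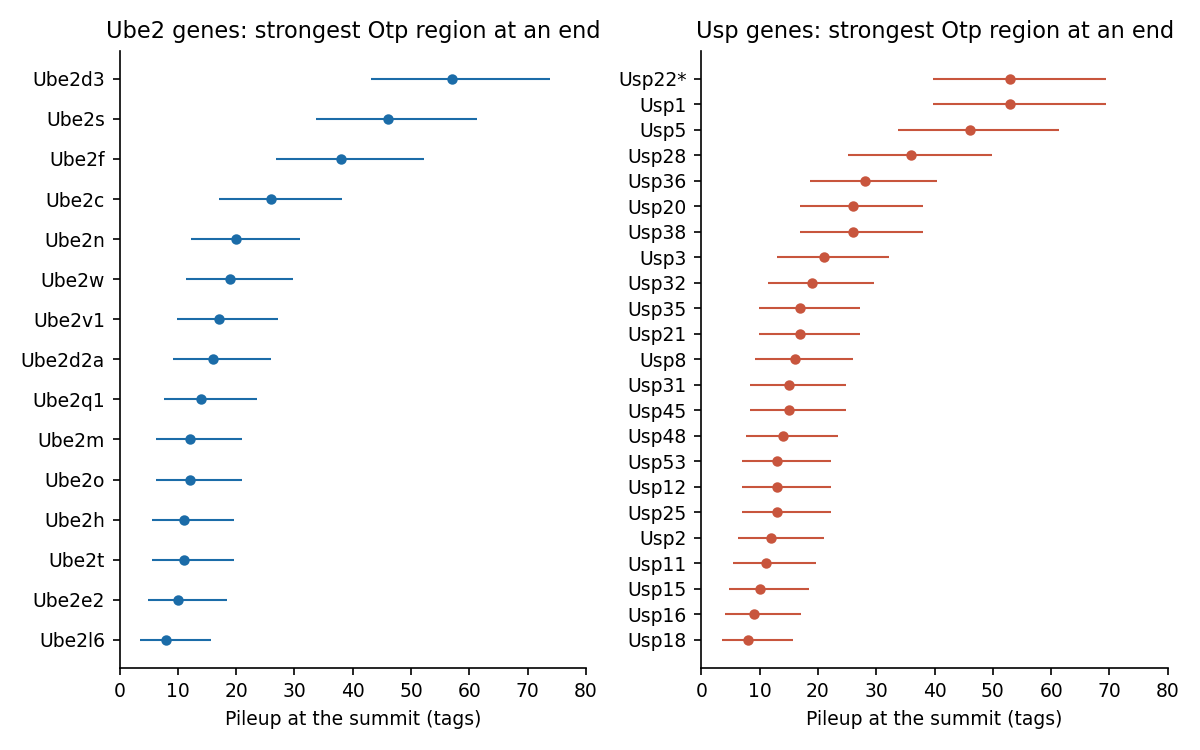
Points give the pileup in tags at the summit of the strongest Otp region at an end of each gene, with its 95% Poisson interval (counting error only), for 15 Ube2 genes on the left and 23 Usp genes on the right; the asterisk marks the gene whose region overlaps an IgG region. Pileups run from 8 to 57 tags, and most intervals overlap those of their neighbours in the order.

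Among the general E2 enzymes, Ube2d3, a broadly acting partner of many E3 ligases, carried the region with the highest −log10 q among Ube2 genes. The region covered chr3:135437940-135438498 and held 57 tags (43.2 to 73.9), a fold enrichment of 14.1 and a −log10 q of 45.9. It ranked 269 of the 11379 Otp regions by −log10 q. Its summit was 11 bp upstream of the start. The close relative Ube2d2a had 16 tags (9.15 to 26.0), a fold enrichment of 7.32 and a −log10 q of 9.20, with the summit 115 bp outside its lower end, so the interval of Ube2d3 lay wholly above that of Ube2d2a. The other members of this subfamily (Ube2d1, Ube2d2b, Ube2dnl1 and Ube2dnl2) had no region at an end.

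Both E2 enzymes of the anaphase promoting complex, the ligase that drives exit from mitosis, had a region. A group of 2 is too small to set against the 27.2% of all genes. Ube2s, which extends ubiquitin chains on this ligase, had 46 tags (33.7 to 61.4), a fold enrichment of 14.9 and a −log10 q of 39.6 at chr7:4812622-4812994. Ube2c, which starts the chains, had 26 tags (17.0 to 38.1), a fold enrichment of 12.9 and a −log10 q of 22.9 at chr2:164769678-164769858. Their summits were 439 bp and 171 bp upstream of the starts.

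Regions were also found at E2 enzymes for the ubiquitin-like proteins NEDD8 and ISG15. Ube2f, which passes NEDD8 to cullins, had 38 tags (26.9 to 52.2) and the highest fold enrichment among Ube2 genes, 16.6 (−log10 q 36.8), at chr1:91250052-91250303. That summit lay inside the gene, 465 bp from its lower end and 149 bp upstream of an annotated start. Ube2m, the other NEDD8 enzyme, had 12 tags (6.20 to 21.0), but the summit was at the far end of the gene, 2741 bp from its start and 109 bp from an end of Chmp2a. Ube2l6, the enzyme for the interferon-induced modifier ISG15, had 8 tags (3.45 to 15.8).

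Chain-type and repair enzymes were mixed. Ube2n, which builds K63-linked chains, had 20 tags (12.2 to 30.9), a fold enrichment of 8.40 and a −log10 q of 12.6 at chr10:95514787-95515055, 197 bp upstream of its start. Its partner Ube2v1 had 17 tags (9.90 to 27.2) with a fold enrichment of 5.41 and a −log10 q of 6.53 at chr2:167632061-167632237, and the alternative partner Ube2v2 had no region. Ube2t, the E2 of the Fanconi anaemia repair pathway, had 11 tags (5.49 to 19.7), a fold enrichment of 6.68 and a −log10 q of 6.55 at chr1:134962490-134962611, with its summit 22 bp upstream of the start. The Rad6 homologues Ube2a and Ube2b, which act in DNA damage tolerance, had no region at a gene end. Ube2b did have one inside the gene, with 16 tags, 87 bp upstream of an annotated start and 31 bp from an end of Cdkl3.

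None of the 4 E2 enzymes of endoplasmic reticulum-associated degradation (Ube2g1, Ube2g2, Ube2j1 and Ube2j2) had a region within 1 kb of an end. Over all protein-coding genes the share with one was 27.2%, and 4 genes are too few to set against it. The nearest region was at Ube2g1, 1251 bp inside the gene with 13 tags, just outside the distance limit. Of the remaining Ube2 genes, Ube2w, which modifies the amino terminus of proteins, had 19 tags (11.4 to 29.7), a fold enrichment of 10.4 and a −log10 q of 15.3 at chr1:16619286-16619460. Ube2q1 had 14 tags (7.65 to 23.5), a fold enrichment of 6.66 and a −log10 q of 7.44 at chr3:89773327-89773424, 232 bp upstream of its start. Ube2o, Ube2e2 and Ube2h completed the 15, with 10 to 12 tags and fold enrichments of 4.99 to 5.79. Ube2e1, Ube2e3, Ube2k, Ube2l3, Ube2q2, Ube2ql1, Ube2r2, Ube2u, Ube2z and Ube2cbp had none.

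Usp1 carried the region with the highest −log10 q and fold enrichment of all 87 genes. Usp1 removes ubiquitin from the repair proteins Fancd2 and PCNA. The region covered chr4:98923129-98923575 and held 53 tags (39.7 to 69.3), a fold enrichment of 16.8 and a −log10 q of 48.6, and it ranked 242 of all Otp regions. The summit lay 485 bp outside the lower end of the gene. Usp12 and Usp46 are close paralogues which, like Usp1, need the cofactor Wdr48. Usp12 had 13 tags (6.92 to 22.2), 160 bp upstream of its start, while Usp46 had no region.

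Of the deubiquitinases that act on histones H2A and H2B, 4 of 8 had a region, a group too small to set against the 27.2% of all genes. Usp22, the H2B protease of the SAGA coactivator complex, had 53 tags (39.7 to 69.3), a fold enrichment of 16.2 and a −log10 q of 47.3 at chr11:61175009-61175573. It is also the single gene of the 87 with an IgG region at an end, at chr11:61175210-61175324, inside the Otp region, at 6 tags (2.20 to 13.1) and a 6.0-fold enrichment. These tag numbers are not on one scale, because the genome background was 5.87 times lower in the IgG library. Scaled by that ratio, even the highest pileup of the 38 genes comes to 9.72 tags, inside the interval of this IgG region. The Otp signal at Usp22 was therefore not shown to exceed the control. Over all protein-coding genes 0.379% had an IgG region at an end. The H2A protease Usp3 had 21 tags (13.0 to 32.1), a fold enrichment of 10.9 and a −log10 q of 17.0 at chr9:66593126-66593222, with its summit 69 bp upstream of a start. Usp21 had 2 regions, 13 tags at 14 bp upstream of its start and 17 tags at the far end, the latter 54 bp from an end of Ppox. Usp16 had 9 tags (4.12 to 17.1), near the low end of the list. Usp27x, Usp44, Usp49 and Usp51 had none.

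Usp5, which takes apart unanchored ubiquitin chains, had 4 regions at its ends, more than any other gene of the 87. The strongest had 46 tags (33.7 to 61.4), a fold enrichment of 11.6 and a −log10 q of 33.1 at chr6:124828957-124829191, inside the gene and 457 bp from an end of Cdca3. The others had 34, 20 and 9 tags. These lay nearer to an end of a neighbour, Cdca3 for the first pair and Tpi1 for the last. Its paralogue Usp13 had no region.

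Usp28 and its paralogue Usp25 both had one, a pair too small to set against the 27.2% of all genes. Usp28, a nuclear protease that stabilises Myc, had 36 tags (25.2 to 49.8), a fold enrichment of 12.1 and a −log10 q of 27.8 at chr9:48984996-48985321, 144 bp upstream of an annotated start. Usp25 had 13 tags (6.92 to 22.2), below the whole interval of Usp28. The nucleolar protease Usp36 had 28 tags (18.6 to 40.5), a fold enrichment of 10.1 and a −log10 q of 19.5 at chr11:118290150-118290480, 24 bp upstream of a start. Usp38 had 26 tags (17.0 to 38.1), a fold enrichment of 12.9 and a −log10 q of 22.9 at chr8:81014878-81015154, with its summit 59 bp upstream of a start. At Usp20 a region of 26 tags lay at chr2:30982000-30982395, with a fold enrichment of 9.69, a −log10 q of 17.7 and its summit 204 bp upstream of the start but 134 bp from an end of BC005624. Its paralogue Usp33 had none.

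Usp8, which deubiquitinates receptors on endosomes, had 16 tags (9.15 to 26.0), a fold enrichment of 9.34 and a −log10 q of 12.3 at chr2:126707143-126707360. Usp32 had 19 tags (11.4 to 29.7), a fold enrichment of 7.44 and a −log10 q of 10.6 at chr11:85139906-85140022, 17 bp upstream of a start and 201 bp from an end of 1700125H20Rik. Usp45, Usp31, Usp35, Usp48, Usp11, Usp53, Usp2, Usp18 and Usp15 make up the rest, with 8 to 17 tags at their strongest region. The lowest of these was Usp18, the protease for ISG15, with 8 tags (3.45 to 15.8). Usp11 was the one gene with a region among the 8 of these families on the X chromosome.

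Several well-studied Usp genes lacked an Otp region at either end. They include Usp7 and Usp10, which act on Mdm2 and p53, the proteasome-bound Usp14, the mitochondrial Usp30, the endoplasmic reticulum protease Usp19, and Usp9x with its Y-linked copy Usp9y. Usp39, a spliceosome protein, and Usp4 had none either. A missing region means that none passed the authors' threshold, not that Otp was absent. The others without one were Usp24, Usp26, Usp29, Usp34, Usp37, Usp40, Usp42, Usp43, Usp47, Usp50 and Usp54.

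In 8 of the 49 genes with no region at an end, one lay inside the gene. Usp37, a protease that acts in the cell cycle, had 31 tags (21.1 to 44.0) and a fold enrichment of 12.5 at chr1:74505834-74506049. It lies 38326 bp from an end of the gene, but 139 bp upstream of an annotated start and 76 bp from an end of Cnot9. Usp34 likewise had 21 tags 433 bp upstream of an annotated start inside the gene. Usp54 had 18 tags and Usp42 had 17 tags at their strongest inside region. Usp29 had 5 regions inside the gene, with 9 to 17 tags. Regions inside the gene and away from its ends occurred in 12 of the 87 genes (13.8%), against 10.5% of all protein-coding genes. The 87 genes have a median length of 43.5 kb against 17.2 kb over all genes, and this share was not adjusted for length.

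Where the strand was known, most regions lay at starts. RefSeq start sites were matched for 68 of the 87 genes, and 31 of these (45.6%) had a summit within 1 kb of one, against 29.5% of all genes with a start. A region at the far end, over 1 kb from any start, was seen in 2 genes, Ube2m and Usp21, against 1.3% of all genes. Of the strongest regions within 1 kb of a start, 23 of 26 (88.5%) had the summit upstream, against 84.5% over all genes. With negative positions upstream, the median summit lay at −107.5 bp (interquartile range −178 to −18.3 bp), and over all genes at −79 bp (−143 to −28 bp). Within 100 bp of the start were 10 of 26 (38.5%) against 54.4% of all genes. At Usp2 and Usp45 the strongest region was at a gene end but at −18016 bp and −9043 bp from the nearest start in the table.

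**Figure D3:**
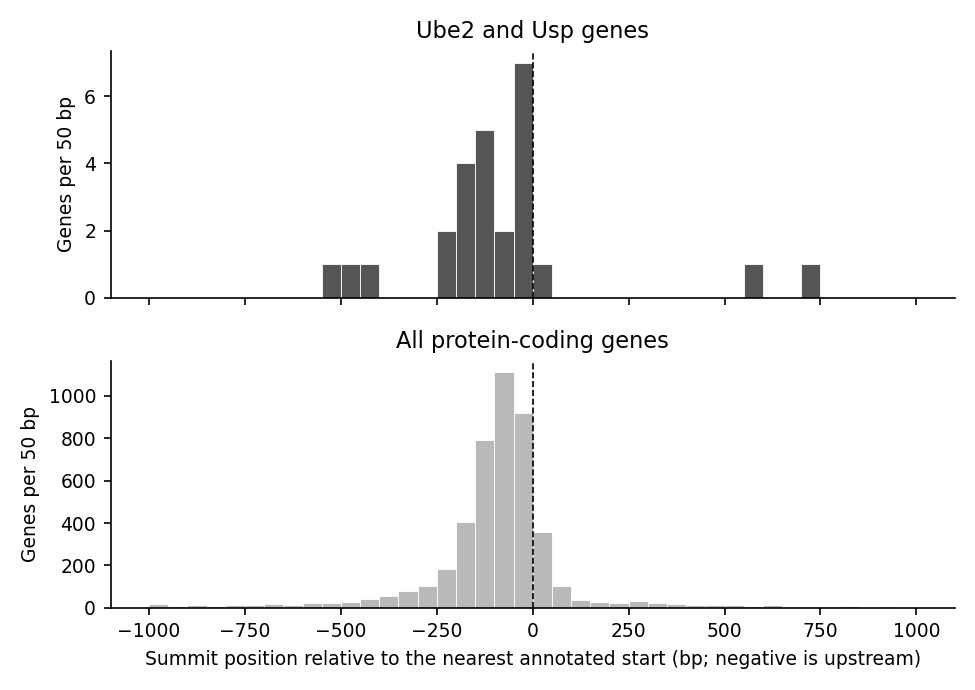
Bars count genes by the position of the summit of their strongest Otp region relative to the nearest annotated start, in bins of 50 bp, for the Ube2 and Usp genes above (26 genes within 1 kb) and all protein-coding genes below. Most bars of both lie between 250 bp upstream and the start, with 3 of the 26 genes downstream of it.

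The strongest region was also within 1 kb of an end of another protein-coding gene for 7 of the 38 genes (18.4%), against 29.0% of all genes with a region. For 5 of them the neighbour was nearer: Ube2m, Usp20, Usp21, Usp32 and Usp45 (16 bp from an end of Tstd3). At Usp35 the summit was 58 bp from both its own end and that of Kctd21. Nearest to the distance limit were Usp11, 732 bp from its end, on the inside, and Usp49, 1172 bp away, on the outside.

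Promoters of these genes were richer in CpG than most. CpG content is given here as the observed over the expected number of CpG in 300 bases around the outermost matched RefSeq start, which 68 of the 87 genes had. That start can lie well inside the gene, as in Usp2 and Usp37, so the window is not always at a gene end. The median CpG content was 0.85 in the 68 genes and 0.58 in all 17492 protein-coding genes with such a window. Across deciles of this ratio, the share of all genes carrying a region went from 1.71% in the lowest to 50.1% in the highest. Of the 68 genes, 30 (44.1%) had a region at an end, 31.7% were expected from length, and 42.2% were expected from CpG content. With CpG content and length together 41.1% were expected. The observed share was thus closer to the expectation from CpG content than to that from length. By family the shares were 40.0% in Ube2 genes, with 41.5% expected from CpG content, and 47.4% in Usp genes, with 42.6% expected. This comparison was added after the counts were seen. The part of CpG content in the result was not tested.

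**Figure D4:**
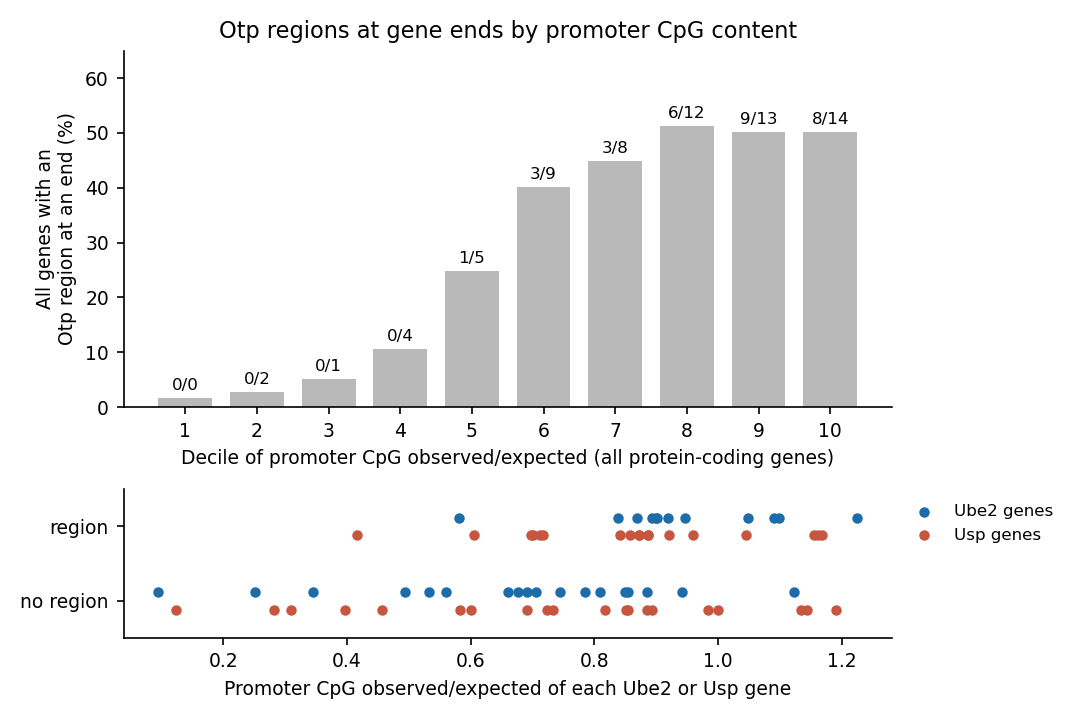
Bars above give the percent of all protein-coding genes with an Otp region at an end in each decile of promoter CpG content, with the number of Ube2 and Usp genes that had a region over those in that decile written on top; points below give the CpG ratio of each of the 68 genes, by family and by presence of a region. None of the Ube2 and Usp genes in the 4 lowest deciles had a region, where 1.71% to 10.6% of all genes per decile had one. In the highest decile 8 of 14 had one, near the 50.1% of all genes there.

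Short motifs in the same 300-base windows, searched on both strands, were described without a test. TAATTA was found in 2 of the 68 genes (2.94%), Usp16 with a region and Usp26 without, against 4.69% of all genes. The TAAT core was in 35.5% of the 31 genes with a region at the start and in 40.5% of the 37 without. Over all genes it was in 41.4% of those with a region and 57.2% of those without. The GC box GGGCGG was in 80.6% of the 31 and in 56.8% of the 37 without. Over all genes it was in 71.5% of those with a region and 36.2% of those without. In the same order, the shares for CCGGAA were 38.7% and 18.9%, and over all genes 33.4% and 13.4%. For CCAAT they were 25.8% and 29.7%, and over all genes 51.1% and 34.4%. For CACGTG they were 16.1% and 5.41%, and over all genes 10.5% and 6.88%. For TGCGCA they were 16.1% and 10.8%, and over all genes 19.7% and 6.23%. For TGACGTCA they were 6.45% and 2.7%, and over all genes 3.19% and 1.98%. TAATTA contains TAAT, so these counts overlap. With 31 genes, 1 gene changes a share by several percent.

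Other ubiquitin pathway genes were taken from lists of enzymes, cofactors and related proteins, chosen with earlier results of these data known. The lists do not cover the whole pathway: for the E3 ligases they hold only a cullin ligase core. Of 90 such genes, 47 (52.2%) carried an Otp region near an end, with 29.9% expected from length, and none had an IgG region at an end. Of those with a start window, 37 of 73 (50.7%) had one, against 41.3% expected from CpG content. Ubiquitin itself and its relatives had one in 7 of 11 genes (24.9% expected from length). By −log10 q the highest were Ufm1 (26.5, with 25 tags, 16.2 to 36.9), the polyubiquitin gene Ubb (26.1, with 36 tags, 25.2 to 49.8) and Urm1 (12.3, with 20 tags). Of the 10 E1 genes, 3 had one (32.7% expected): Uba3 and Nae1, which together activate NEDD8, with 42 and 12 tags, and Uba6 with 19 tags.

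Of 6 listed E2 enzymes without a Ube2 symbol, 5 were matched to the annotation, and these 5 had a region (27.4% expected from length). The highest −log10 q was at Birc6, an inhibitor of apoptosis, at 36.7 with 44 tags (32.0 to 59.1). Atg10 (7.69, 11 tags) and Ufc1 (6.45) followed by that measure. Ufc1 had 3 regions at its ends, and the strongest (13 tags) is the one at the start of Usp21, 589 bp from the end of Ufc1. The cullin ligase core had one in 6 of 14 genes (32.0% expected), with Eloc at 33 tags, Cul3 at 29 and Cul4a at 24. Deubiquitinases of other folds had one in 20 of 40 genes (29.9% expected). The list for the JAMM family also holds related proteins without its metal-binding motif, such as the translation initiation subunit Eif3h (33 tags). Others with a region were the JAMM family H2A protease Mysm1 (20 tags), and Otud6b (28 tags) and Otud4 (32 tags) of the OTU family. Cyld, a tumour suppressor with a Usp fold, had 37 tags (26.1 to 51.0), Uspl1 25 and Pan2 21. Of the Usp cofactors 3 of 7 had one (29.9% expected): Eny2 of the SAGA module with 24 tags, Dmwd with 21 and Atxn7l3 with 15. Wdr48 had none.

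The IgG control limits what can be said of weak regions. Of the 44 Otp regions at ends of these genes, 1 overlapped an IgG region. Scaled by the background ratio of 5.87, however, a pileup of 24 tags corresponds to 4 tags in the IgG library, its weakest region with a pileup. Of the 38 genes, 11 reached 24 tags. At the other 27 a signal of equal strength in the IgG library was not detectable at this depth. The limit of 24 tags takes no account of local background. It therefore does not show that a missing IgG region is informative at the 11.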

How the data were processed

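The authors deposited 1 peak list per library. The submitters' processing notes name MACS2, Bowtie2, SAMtools, Picard and Trimmomatic, and the build mm10. The sources used here do not give versions, settings, duplicate handling or whether a control entered peak calling. Fold enrichment (a ratio over the caller's background), −log10 p and −log10 q were used as the authors deposited them. Pileups are the whole number that matches the deposited fold and −log10 p under MACS2's definitions (pileup plus 1 over background plus 1, and the Poisson tail) within 0.001, with every other whole number missing by over 0.005. This solved 98.5% of Otp and 93.8% of IgG regions, and was tested on simulated data. The genome background of a library is the lowest background that 3 or more regions share.

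Genes, spans and start windows (250 bases before to 50 after a start) came from RefSeq tables of GRCm38.p6. Promoters of Ube2d2a, Ube2e3, Ube2g2, Ube2o, Ube2v2, Ube2w, Usp1, Usp14, Usp18, Usp22, Usp33, Usp39, Usp42, Usp43, Usp44, Usp5, Usp53 and Usp9x were not used here. The values of 1 gene are counted but not reported here. Regions overlap when they share 1 bp or more. Expected shares are means of the share in 10 bins of length or CpG content, or in 10 CpG bins within 3 bins of length. The genes, roles and pathway lists were chosen with earlier results of these data known. Full values are given for the 10 Ube2 and 10 Usp genes with the highest −log10 q at an end, and for up to 3 genes per pathway list. Python 3.11.15, numpy 2.4.6, scipy 1.17.1 and pandas 2.3.3 were used.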

Additional observations from a re-analysis of the deposited data

How the results depend on the processing

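A −log10 q of at least 10 left 18 of the 38 genes with an Otp region at an end (6 Ube2 and 12 Usp genes) and 29 of the 47 other pathway genes, and 13.4% of all genes. With the limit at 5 the counts were 31, 11, 20 and 43. A fold enrichment of at least 5 left 36 genes, a window of 500 bp 36, and the nearest gene end alone 34. Regions without IgG overlap gave 37, and starts alone 31 of 68. A window of 5 kb gave 46 and counting gene bodies also gave 46. For starts no expectation from length was computed. In each of the other settings the share in the 87 genes stayed above both that of all genes and that expected from length, which was 31.3% with 20 length bins. The single overlap with an IgG region, at Usp22, was gone with a reciprocal overlap of 50% (0). The widths alone fixed that outcome, because the IgG region of 115 bp lies wholly inside the Otp region of 565 bp. Expectations from CpG content, added after the data were seen, are in the report. Total depth is unknown, and the IgG library limits any comparison under 24 tags. No paired analysis was possible because each antibody has 1 library, and for the same reason no library could be left out.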

Other observations

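The 3 highest deciles of gene length, from shorter to longer, held 17, 23 and 9 of the 87. Of these 5, 10 and 2 carried an Otp region near an end, against 33.8%, 33.8% and 27.4% of all genes in those deciles. In decile 7 (24584 to 35837 bp) it was 8 of 10, Ube2d3, Ube2n, Usp36 and Usp38 among them, against 35.2% of all genes. That was the highest share of the 10 deciles, and the numbers per decile are small. Deciles 5 and 6 had 3 of 6 and 3 of 9, against 33.1% and 32.9% of all genes.

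Of all protein-coding genes on the X chromosome 17.3% carried an Otp region near an end, against 28.0% on autosomes and 0.781% on the Y chromosome. Among the Ube2 and Usp genes it was 1 of 8 on the X chromosome, 37 of 78 on autosomes, and not the 1 gene on the Y chromosome, Usp9y.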
